A study of Clarias macrocephalus with 14 samples.

Results

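Gene IDs whose counts were highest at 13 days post fertilization (dpf) were examined in Clarias macrocephalus, the broadhead catfish, from RNA of entire fry. The genes were chosen by their levels in these same libraries. Counts were summed per all-digit Gene ID and expressed as counts per 1000000 (CPM) after TMM scaling, which corrects library totals for a few very abundant genes. A Gene ID was kept when its 13 dpf mean was 20 CPM or more, both 13 dpf libraries lay above the other 12, and its score was 2 or more. The score is the 13 dpf mean plus 1 CPM, divided by the highest mean of the other 6 ages plus 1 CPM. Of 18643 Gene IDs past a low-count filter, 6375 had the required mean, 558 also had both libraries on top, and 53 also reached the score. The limit of 150 Gene IDs was therefore not reached, and all 53 are described. Everything that sets 13 dpf against another age was used to choose them and is given as a description, without a test.

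The 14 libraries came from total RNA of whole fry at 3, 5, 13, 14, 16, 17 and 24 dpf, 2 libraries per age, with sex recorded as unknown. All ages were prepared in the same way, with ribosomal RNA removed. Strain, rearing and the number of fry per library are not stated in the labels, and p-values therefore reflect how much these particular libraries vary, which may be technical. The study followed early development in a search for genes of air breathing.

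Clarias larvae first live on yolk, then feed, and later breathe air at the surface with an organ above the gills that grows out during the larval and juvenile periods. Over the same period the gut, muscle, skeleton, skin and sense organs mature at different times, and many genes are used for a limited time. In RNA of whole animals, more cells of a type and more RNA per cell cannot be told apart. The table gives Gene IDs without gene names, so no tissue, pathway or protein is named here, and the labelled whole-body tissue could not be checked against marker genes.

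Library totals ran from 1460853 to 8837320 counts, and 98.5 to 99.7% of the counts of a library lay under all-digit Gene IDs. The libraries of 17 and 24 dpf had TMM factors of 0.391 to 0.657, and all younger libraries had 1.22 to 1.41. The 2 libraries of 13 dpf, with 3660103 and 2787143 counts, differed from each other by more than counting noise, with a mean chi-square of 9.55 per Gene ID. That mean was 1.34 to 3.64 at 3, 5, 14, 16 and 17 dpf and 15.4 at 24 dpf. The median chi-square, divided by its value under counting noise alone, set 13 dpf less apart. It was 2.02 at 13 dpf, against 1.74 at 3 dpf, 1.86 at 5 dpf and 2.16 at 17 dpf. At 14 and 16 dpf it was 1.21 and 1.27, and at 24 dpf 5.7.

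The 53 Gene IDs formed a peak at 13 dpf over a level that was present at most other ages. Their median level was 65.3 CPM at 13 dpf, against 10.6 CPM in 3 dpf fry and 20.7 CPM in 5 dpf fry before the peak. After it the median was 14.2 CPM in 14 dpf fry, 15.4 CPM in 16 dpf fry, 6.69 CPM in 17 dpf fry and 8.21 CPM in 24 dpf fry. Scores ran from 2.01 to 5.3 with a median of 2.56. With all assembled transcripts of a Gene ID summed, the highest mean at any other age was 4.79 to 1350 CPM. None of the 53 sums was thus restricted to 13 dpf. In 7 of them the level at other ages rests mostly on transcripts other than the one that leads at 13 dpf, as described below. Replicate 2 of 24 dpf was the library with the most of them at 0 counts, which were 6, and in the libraries of 5, 13, 14 and 16 dpf none did.

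The gap to the ages on both sides of the peak was wide for some genes and near the required 2-fold for others. The ratio of the 13 dpf mean to the 14 dpf mean, each with 1 CPM added, had a median of 4.19 and a range of 2.09 to 27.8. Against 5 dpf the same ratio had a median of 3.14 and a range of 2.01 to 48.5. Against 17 dpf the median ratio was 9.31, the largest of the 6.

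**Figure D1:**
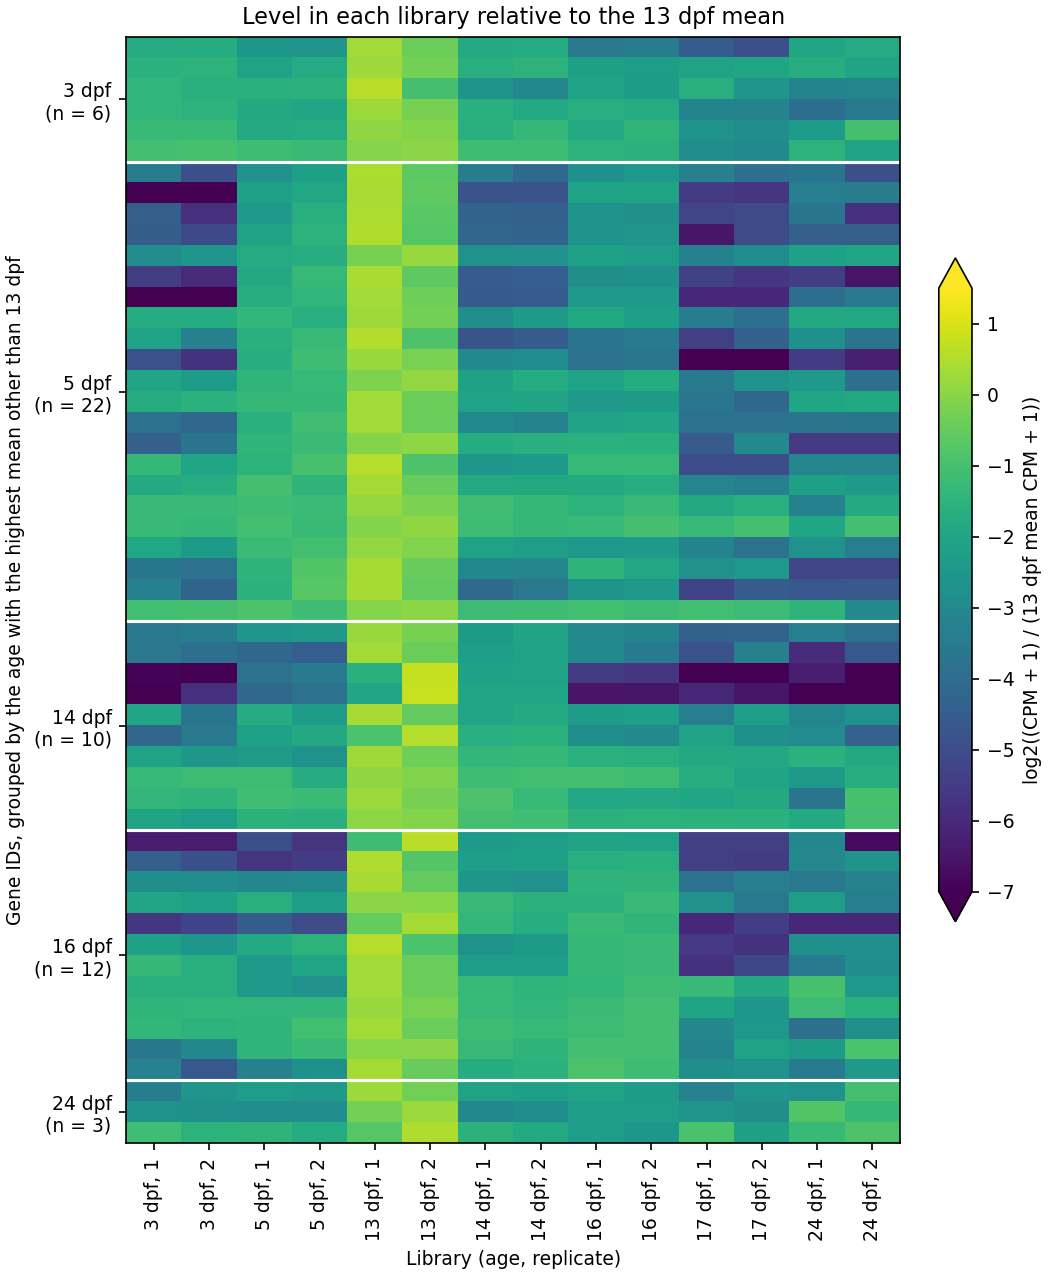
Each row is 1 of the 53 Gene IDs and each column 1 of the 14 libraries; colour gives log2 of the CPM in the library over the 13 dpf mean CPM, with 1 CPM added to both. Rows are grouped by the age with the highest mean other than 13 dpf: 3 dpf (6), 5 dpf (22), 14 dpf (10), 16 dpf (12) and 24 dpf (3). Both 13 dpf columns are brightest in every row, as the choice of the rows requires, and many rows of the 5 dpf group are brighter at 5 and 16 dpf than at 14 dpf.

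The highest score, 5.3, belonged to Gene ID 108278393. Its level was 40.9 and 18.5 CPM in the 13 dpf libraries, from 199 and 72 counts. The 3 dpf libraries had 1.93 and 0 CPM and the 5 dpf libraries 3.69 and 5.89 CPM. After the peak, the 14 dpf libraries had 1.88 and 0.786 CPM, those of 16 dpf 3.65 and 4.56, those of 17 dpf 2.15 and 1.05, and those of 24 dpf 1.36 and 0. The lower 13 dpf library was thus 3.14-fold above the highest other library, and the 5 dpf and 16 dpf libraries were the next highest. Outside 13 dpf its counts per library were 0 to 53, so its course among the other ages rests on few reads.

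Gene ID 108264711, with a score of 4.57, was more evenly measured. It had 151 and 111 CPM at 13 dpf, against 9.95 and 11.5 CPM in the 3 dpf libraries and 21.5 and 23.4 CPM in those of 5 dpf. Afterwards it had 24.8 and 30.8 CPM in the 14 dpf libraries, 15.4 and 13.4 in those of 16 dpf, 5.36 and 5.77 in those of 17 dpf, and 12.2 and 8.27 in those of 24 dpf. Apart from the peak, all libraries of 5 and 14 dpf, the ages on both sides of it, were above the rest. Its lower 13 dpf library was 3.59-fold above the highest other library, the widest such gap of the 53. Across the 53 that gap had a median of 1.88 and a range of 1.04 to 3.59.

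A few abundant Gene IDs held most of the counts. The most abundant had 7285 and 3685 CPM at 13 dpf and took 26.8% of all counts of the 53 at that age, and the 5 most abundant took 66.9%. Before the peak it had 8.35 and 8.27 CPM in the 3 dpf libraries and 1255 and 1452 CPM in those of 5 dpf. After it the 14 dpf libraries had 194 and 199 CPM, those of 16 dpf 1309 and 1336, those of 17 dpf 119 and 102, and those of 24 dpf 532 and 521. Its level alternated: 5, 13, 16 and 24 dpf were high, and 3, 14 and 17 dpf were low, with no overlap between these 2 sets of ages.

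The next most abundant Gene ID had 4697 and 1731 CPM at 13 dpf. Its other libraries reached 1324 CPM at 16 dpf and were lowest at 17 dpf, with 66.0 and 58.6 CPM. The third had 2679 and 1104 CPM at 13 dpf, 412 to 628 CPM per library at 14 and 16 dpf, and 36.0 to 86.7 CPM at 3, 5 and 17 dpf. It had 237 and 313 CPM at 24 dpf, so its level was high at 13, 14, 16 and 24 dpf, with no overlap with the libraries of the other 3 ages.

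Together the 53 Gene IDs held 3.49% of the counts in replicate 1 of 13 dpf and 2.14% in replicate 2, 2.81% ± 0.955 (SD, n = 2). In younger fry the share was 0.297% ± 0.0481 (3 dpf) and 0.726% ± 0.0718 (5 dpf). In older fry it was 0.368% ± 0.00759 (14 dpf), 0.705% ± 0.00628 (16 dpf), 0.0462% ± 0.00327 (17 dpf) and 0.116% ± 0.0261 (24 dpf), all SD with n = 2. The share at 14 dpf was below that at 5 and at 16 dpf in every library. These shares are of unscaled counts. On the TMM scale the summed level was 796 and 741 CPM at 17 dpf and 5259 and 5381 CPM at 16 dpf. It was 2495 and 2667 CPM at 24 dpf, 2525 and 2159 CPM at 3 dpf, and 2947 and 3082 CPM at 14 dpf. The low share at 24 dpf relative to 3 dpf was therefore not seen on the TMM scale.

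**Figure D2:**
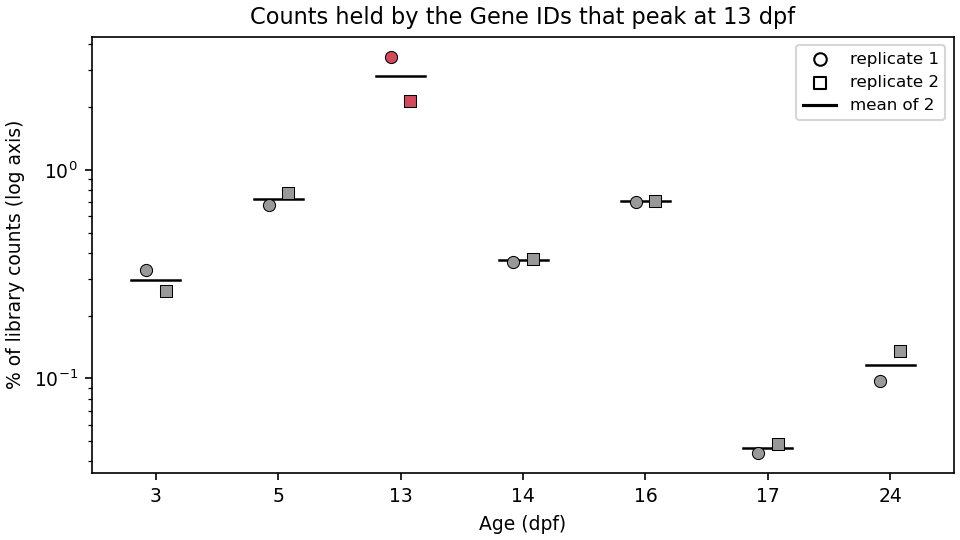
The vertical axis, a log axis, gives the percent of each library's counts under all-digit Gene IDs that the 53 Gene IDs hold; the horizontal axis gives the age in dpf. Circles are replicate 1, squares replicate 2 and lines their mean. The 13 dpf libraries, at 3.49 and 2.14%, lie above all others by the choice of the genes; among the rest, 5 and 16 dpf are highest and 17 dpf lowest.

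The 13 dpf libraries differed by 2-fold or more for a larger share of these genes than of all genes at 20 CPM or more, a set that holds the 53 and is not matched to their levels. Between the 2 libraries the level differed by 2-fold or more for 14 of the 53 (26.4%), against 161 of the 6375 Gene IDs with a 13 dpf mean of 20 CPM or more (2.53%). Replicate 1 was higher for 39 of the 53 (73.6%) and for 56.2% of those 6375. Both libraries were used to choose the 53, so these counts describe them and test nothing.

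In 5 of the 14, those with ranks 4, 5, 7, 14 and 50 by score, replicate 2 was the higher library. Their courses at other ages differed when all transcripts of a Gene ID were summed. The Gene ID with rank 4 by score had 1185 CPM in replicate 2 and 233 in replicate 1 of 13 dpf, with 162 and 169 CPM in the 14 dpf libraries, 49.7 and 63.9 in those of 5 dpf and at most 15.0 CPM in every library of 3, 16, 17 and 24 dpf. The Gene ID with rank 5 had 167 CPM in replicate 2 and 47.9 in replicate 1. It had 19.6 to 25.2 CPM per library at 14 and 16 dpf and at most 2.60 CPM at 3, 5 and 17 dpf. Its 24 dpf libraries differed, with 12.2 CPM in replicate 1 and 0 in replicate 2. The Gene ID with rank 7 by score had 239 CPM in replicate 2 and 34.3 in replicate 1, and its 14 dpf libraries, with 33.1 and 33.0 CPM, nearly reached replicate 1. This was the narrowest gap of the 53, at 1.04-fold. For single transcripts, counts not scaled to library depth are given. In ranks 4 and 7 the assembled transcript with most counts at 13 dpf had counts at 13 and 14 dpf only. In ranks 14 and 50 it had 47 and 34 counts at 14 dpf, against 32 and 23 at 3, 5, 16, 17 and 24 dpf together. In rank 5 it had 196 counts at 14 dpf and 517 at those ages. The 14 dpf libraries were deeper than those of 24 dpf, so these counts do not order the ages by level. On the CPM scale, the highest library outside 13 dpf had 5.42 CPM for this transcript in rank 14 and 8.14 CPM in rank 50. With only replicate 1 kept at 13 dpf, the same rule found 82 Gene IDs, 44 of them among the 53. With only replicate 2 kept it found 62, 29 of them among the 53.

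**Figure D3:**
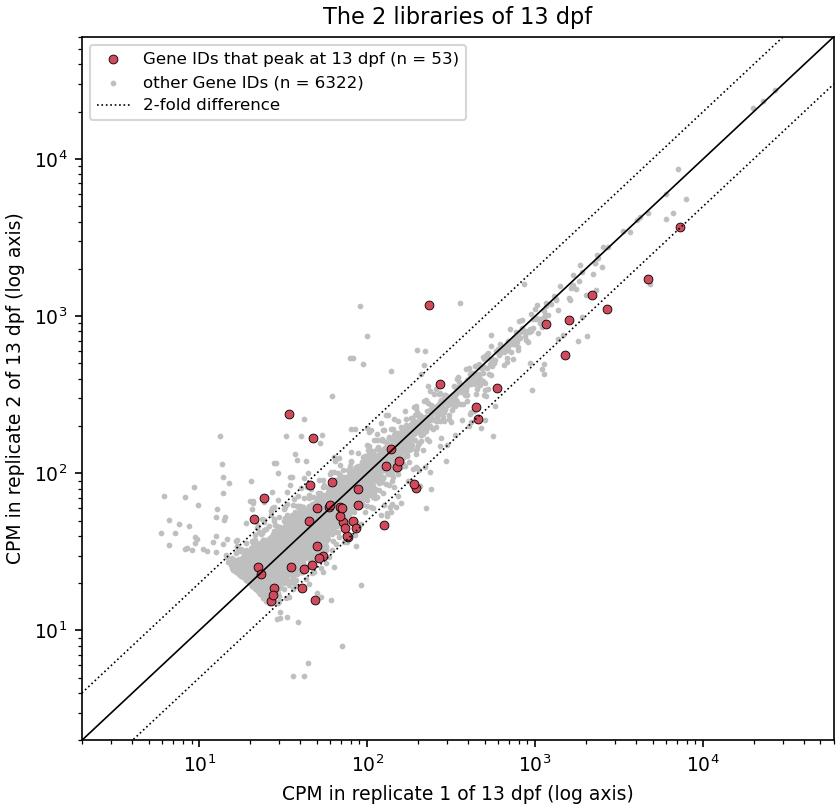
CPM in replicate 2 against replicate 1 of 13 dpf, on log axes, for the 6375 Gene IDs with a 13 dpf mean of 20 CPM or more, the 53 in red and the others in grey. The solid line marks equal levels and the dotted lines a 2-fold difference; 14 red points lie on or beyond a dotted line, 9 of them higher in replicate 1 and 5 higher in replicate 2.

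Outside 13 dpf the genes did not share a single course. The highest other mean fell in 5 dpf fry for 22 of the 53 (41.5%). It fell in 16 dpf fry for 12 (22.6%), in 14 dpf fry for 10 (18.9%), in 3 dpf fry for 6 (11.3%), in 24 dpf fry for 3 (5.66%) and in 17 dpf fry for 0. Over all 18643 Gene IDs tested, the highest of these 6 means fell in 3 dpf fry for 12.1%, in 5 dpf fry for 21.3%, in 14 dpf fry for 18.4%, in 16 dpf fry for 9.98%, in 17 dpf fry for 17.1% and in 24 dpf fry for 21.1%. Among the 6375 with a 13 dpf mean of 20 CPM or more, it fell in 5 dpf fry for 19.7%, in 16 dpf fry for 10.5%, in 17 dpf fry for 8.78% and in 24 dpf fry for 34.1%. The lowest of the 6 means was at 17 dpf for 23 of the 53 (43.4%) and for 16.1% of all tested.

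The 22 Gene IDs with their highest other mean at 5 dpf had median levels of 65.8 CPM at 13 dpf and 29.8 CPM in 5 dpf fry. Later medians were 14 CPM (14 dpf), 17.8 CPM (16 dpf), 5.17 CPM (17 dpf) and 7.87 CPM (24 dpf). For the 12 with 16 dpf second, the medians were 62.8 CPM at the peak, 21.2 CPM a day later and 24.8 CPM at 16 dpf, with 6.77 and 10 CPM at 3 and 5 dpf. The 10 with 14 dpf second had 74.5 CPM at 13 dpf and 22.2 at 14 dpf. These groups differ at the ages that define them, and no test was made between them. The lead of the defining age could be small. The Gene ID with rank 39, in the 5 dpf group, had means of 10.37 CPM at 5 dpf, 10.33 at 16 dpf and 10.31 at 17 dpf.

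The rule keeps every other age below 13 dpf and sets no order among them, so comparisons among the other 6 ages were tested. They were made over all 18643 Gene IDs in a single edgeR quasi-likelihood fit, with Benjamini-Hochberg adjustment in each comparison and a threshold of 0.05. The fit held all libraries, so the 13 dpf pair that was used to choose the 53 also entered the estimate of spread. Any difference among 3, 5, 14, 16, 17 and 24 dpf was called for 49 of the 53 (92.5%), near the 87.2% of all Gene IDs tested. The comparisons below share libraries where they share an age, so they are not independent of each other. With 1 CPM added to each mean, log2 differences are given as later minus earlier age.

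From 3 to 5 dpf, before the peak, 21 of the 53 (39.6%) rose and 6 (11.3%) fell, against 24.7% of all tested Gene IDs that were higher and 20.5% that were lower. The median log2 difference was 0.57 for the 53 and 0.04 for all tested. The most abundant Gene ID rose most, with 1255 and 1452 CPM at 5 dpf, against 8.35 and 8.27 CPM at 3 dpf (adjusted p = 5.56e-14 in edgeR). Gene ID 108264711 also rose, to 22.4 ± 1.36 CPM at 5 dpf, against 10.7 ± 1.09 CPM at 3 dpf (SD, n = 2 each; edgeR adjusted p = 0.000484). Gene ID 108278393 rose to 4.79 ± 1.55 CPM at 5 dpf, against 0.963 ± 1.36 CPM at 3 dpf (SD, n = 2 each; edgeR adjusted p = 0.0212). That call was lost without replicate 2 of 3 dpf (adjusted p = 0.233) or replicate 2 of 5 dpf (0.103), and over 24 alternatives its adjusted p was 0.000618 to 0.233. The 6 lower calls became 1 without replicate 1 of 3 dpf or replicate 1 of 5 dpf, and 3 without replicate 2 of either age.

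Across the peak, 14 against 5 dpf, the genes split, as did all tested Gene IDs. At 14 dpf 11 of the 53 (20.8%) were higher than at 5 dpf and 20 (37.7%) lower, against 27.1% and 28.6% of all tested Gene IDs. The median log2 difference was -0.03 for the 53 and 0.00 for all tested, and single genes ran from -3.24 to 3.42. The most abundant Gene ID was lower after the peak than before it, with 194 and 199 CPM at 14 dpf, against 1255 and 1452 CPM at 5 dpf (edgeR adjusted p = 1.02e-09). The third most abundant went the other way, with 412 and 419 CPM at 14 dpf and a fitted log2 change of 3.45 over its 5 dpf level (edgeR adjusted p = 8.87e-10). Gene ID 108278393 was lower, at 1.33 ± 0.773 CPM at 14 dpf, against 4.79 ± 1.55 CPM at 5 dpf (SD, n = 2 each; edgeR adjusted p = 0.00978). This call was lost without replicate 2 of 14 dpf (adjusted p = 0.13) or replicate 2 of 5 dpf (0.0844), with a range of 0.000116 to 0.13 over 24 alternatives.

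From 14 to 16 dpf, 16 of the 53 (30.2%) rose again and 11 (20.8%) fell further, against 17.9% and 15.7% of all tested Gene IDs. The median log2 difference was 0.10 for the 53 and -0.01 for all tested. The most abundant Gene ID returned to 1309 and 1336 CPM at 16 dpf, against 194 and 199 CPM at 14 dpf (edgeR adjusted p = 5.33e-09). Gene ID 108264711 fell to 14.4 ± 1.4 CPM at 16 dpf, against 27.8 ± 4.27 CPM at 14 dpf (SD, n = 2 each; edgeR adjusted p = 0.000154). The 11 lower calls became 5, and all calls 18 in place of 27, without replicate 2 of 16 dpf.

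From 16 to 17 dpf all members that passed the test were lower. Of the 53, 34 (64.2%) fell and 0 rose, against 23.6% of all tested Gene IDs that were lower and 23.2% that were higher. For the higher direction, edgeR gave 1 of the 53 at an unadjusted p under 0.05, DESeq2 and limma-voom gave 0 at an adjusted p under 0.05, and edgeR gave 1 with upper-quartile scaling and 1 without the low-count filter. Over 24 alternatives this count was 0 or 1. The median log2 difference was -1.23 for the 53 and 0.00 for all tested. The difference did not pass the test for 19 of the 53, and it was positive for 5, at most 0.95. The most abundant Gene ID fell to 119 and 102 CPM at 17 dpf, against 1309 and 1336 CPM at 16 dpf (edgeR adjusted p = 8.38e-11). The next most abundant fell to 66.0 and 58.6 CPM, against 1272 and 1324 CPM at 16 dpf (edgeR adjusted p = 3.36e-10). Gene ID 108264711 fell to 5.57 ± 0.287 CPM at 17 dpf, against 14.4 ± 1.4 CPM at 16 dpf (SD, n = 2 each; edgeR adjusted p = 0.000977). The TMM factors (0.553 and 0.657 for 17 dpf, 1.33 and 1.32 for 16 dpf) move with this step, and their part in the result was not tested. Under upper-quartile scaling the median of all tested shifted from 0.00 to 0.13 in the fitted log2 change, and 33 of the 53 were still called lower.

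From 17 to 24 dpf, 15 of the 53 (28.3%) rose and 2 (3.77%) fell, against 13.5% and 11.9% of all tested Gene IDs. The median log2 difference was 0.38 for the 53 and -0.09 for all tested. The most abundant Gene ID rose to 532 and 521 CPM at 24 dpf, against 119 and 102 CPM at 17 dpf (edgeR adjusted p = 4.23e-07), which was still below its 16 dpf level in both libraries. The next most abundant rose to 479 and 482 CPM at 24 dpf, against 66.0 and 58.6 CPM at 17 dpf (edgeR adjusted p = 5.56e-07). The third rose to 237 and 313 CPM, against 44.5 and 41.3 CPM at 17 dpf (edgeR adjusted p = 1.36e-06).

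The 2 that fell both had low counts. Gene ID 108260339 had 0 counts in both libraries of 24 dpf, against 9 and 11 counts, or 4.83 and 5.75 CPM, at 17 dpf. Set against 3 counts summed over both 24 dpf libraries, it was at least 2.58-fold lower (edgeR adjusted p = 0.0434), and the call was lost without either library of 3, 17 or 24 dpf, with an adjusted p of 0.00676 to 0.176 over 24 alternatives. Earlier this gene was high in the libraries of 5 dpf (12.7 and 20.3 CPM), 13 dpf (47.1 and 26.2 CPM) and 16 dpf (12.5 and 9.04 CPM). It was low in those of 3 dpf (1.93 and 1.72 CPM) and 14 dpf (3.59 and 3.3 CPM). It thus alternated between the same ages as the most abundant gene up to 16 dpf. Gene ID 108280384 had 21.7 and 6.89 CPM at 24 dpf, from 16 and 5 counts, against 28.4 and 26.7 CPM at 17 dpf (edgeR adjusted p = 0.0426). Without replicate 2 of 24 dpf its adjusted p was 0.559, and over 24 alternatives, 10 of which lost the call, it was 0.00498 to 0.559. From 3 to 17 dpf this gene stayed at 26.7 to 32.8 CPM in every library other than those of 13 dpf, where it had 60 and 63 CPM.

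**Figure D4:**
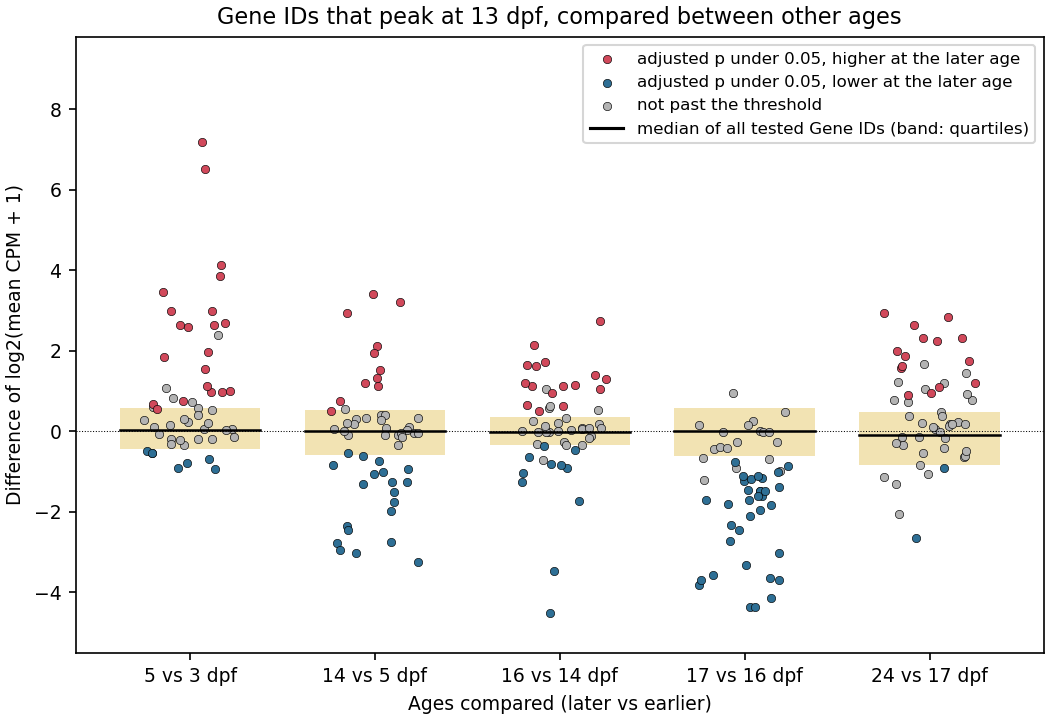
Each point is 1 of the 53 Gene IDs. The vertical axis is the difference of log2(mean CPM + 1) between the later and the earlier age. The 5 comparisons are between ages other than 13 dpf, and the 13 dpf libraries entered the fit only through the estimate of spread. Red and blue points passed an adjusted p of 0.05 in edgeR as higher or lower at the later age, grey points did not, and the black line and band are the median and quartiles of all tested Gene IDs. For 17 vs 16 dpf 34 points are blue and none red; in the other 4 comparisons both colours occur.

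Each Gene ID sums the counts of its assembled transcripts. The 53 Gene IDs covered 1 to 32 transcripts with a median of 5, the same median as over all tested, and 6 had a single transcript. For 34 of the 53, 1 transcript held 90% or more of the counts at 13 dpf. In 40 of the 47 with more than 1 transcript, the leading transcript of 13 dpf was also first over the other 12 libraries. In the other 7 (14.9%) another transcript led there. Among the 6179 Gene IDs with more than 1 transcript and a 13 dpf mean of 20 CPM or more, this held for 414 (6.7%). The 53 were chosen for higher counts at 13 dpf than at other ages, which can favour such a change of lead. These shares therefore describe the 53 and test nothing.

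In those 7 the leading transcript of 13 dpf was a small part of the Gene ID at other ages. In each of the 7 it lay in a different cluster of the assembly from the transcript that led elsewhere. Whether such transcripts come from the same gene was not tested. The leading transcript held 44.9 to 87.6% of the Gene ID's counts over both 13 dpf libraries and 0.247 to 16.3% in the other 12 libraries. The share differed between the 13 dpf libraries: with rank 19 it was 28.7% in replicate 1 and 74.3% in replicate 2, and with rank 48 it was 25.8% and 75.4%. In the Gene ID with rank 12 by score it had 194 and 300 CPM at 13 dpf and at most 14.5 CPM elsewhere, while the remaining transcripts had 78.3 and 68.4 CPM at 13 dpf and up to 83.5 CPM in another library. In the Gene ID with rank 19 by score the leading transcript had 100 and 142 counts at 13 dpf and 2 counts over the other 12 libraries together. In that with rank 20 it had 219 and 43 counts at 13 dpf and 6 over the other 12. With the leading transcript left out, none of the 7 had both 13 dpf libraries on top. In replicate 1 alone, the remaining transcripts of rank 19 had 51.0 CPM, against at most 22.3 CPM at other ages, and those of rank 48 had 46 CPM, against at most 32.5 CPM. At other ages the level of these 7 Gene IDs, and so the comparisons above, rest mostly on transcripts other than the one that leads at 13 dpf.

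Over the whole group, 25 Gene IDs had 20 or more counts at 13 dpf outside the leading transcript, and in 9 of them the remaining transcripts also had both 13 dpf libraries above the other 12. How reads were shared among similar transcripts is not known from the table, and near-identical gene copies can take counts from each other. Of the 53, 2 Gene IDs had transcripts in a cluster of the assembly shared with another of the 53. Clusters shared with Gene IDs outside the 53 were not counted. The levels of genes with shared clusters are uncertain to that extent, and the full number of such genes is not known.

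**Figure D5:**
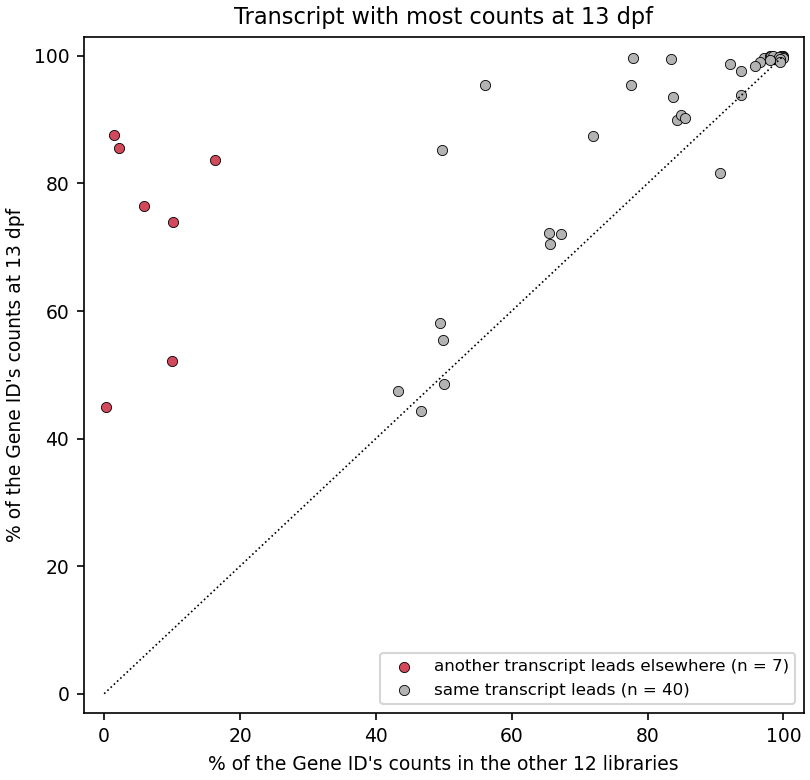
For the 47 Gene IDs with more than 1 transcript, the vertical axis gives the percent of the Gene ID's counts at 13 dpf held by the transcript with most counts at that age, and the horizontal axis the percent the same transcript holds in the other 12 libraries. Red points (7) are Gene IDs in which another transcript leads in the other libraries, grey points (40) those in which the same one leads; the dotted line marks equal percentages, and the red points lie far above it, at 16.3% or less on the horizontal axis.

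The last 2 Gene IDs inside it had scores of 2.01 and 2.008, and the first 2 outside had 1.976 and 1.97, with 13 dpf means of 61.5 and 141 CPM inside and 57.8 and 29.4 CPM outside. A further 114 Gene IDs met the other criteria with a score from 1.5 to 2. The same rule applied to the other ages gave 49 Gene IDs for 3 dpf, 324 for 5 dpf, 60 for 14 dpf, 44 for 16 dpf, 104 for 17 dpf and 350 for 24 dpf, so 13 dpf was among the ages with the fewest such genes.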

How the data were processed

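Whole-fry RNA-seq of 14 libraries, 2 at each of 7 ages, was analysed. The authors deposited expected counts for 172513 assembled transcripts under 25238 Gene IDs; per the submitters' processing notes CASAVA 1.9.1, FastQC, Trimmomatic 0.36, RSEM and DESeq2 were used, in an order and for steps not given in the sources used here, as are the assembly version, strand setting and any genome build. Lines whose Gene ID is not all digits (5672 transcripts) were left out of the main analysis.

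Counts were summed per Gene ID, filtered (edgeR filterByExpr by age, minimum count 10), TMM-scaled and, rounded, analysed under R 4.3.3 by the quasi-likelihood test of edgeR 4.0.16. All 14 libraries and the 7 ages entered 1 model without covariates, with Benjamini-Hochberg adjustment over all Gene IDs. The fit was run on simulated data with planted changes, as a check of the calculation only. The simulated spread came from these same libraries, so how well the model suits them was not tested. DESeq2 1.42.0 and limma 3.58.1 (voom) were alternatives. Totals of 1460853 to 8837320 counts set the precision; floors of 3 counts cover counting error only.

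The 53 members and all lists were chosen with earlier results of these data known. The 36 gene lists need symbols, which the table does not pair with its IDs, and were not tested. For the same reason the rule for IDs to print gave 4: the 2 highest scores, and the 2 largest falls from 17 to 24 dpf at 5 CPM or more. Genes named by rank were chosen after their values were seen.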

Additional observations from a re-analysis of the deposited data

How the results depend on the processing

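Among 177 alternative values of the group's counts and shares, 175 were close to those reported. Close means counts within 1.5 times and shares within the SD of the 13 dpf libraries. Some of these values had little or no room to move. Of 2 libraries each lies within the SD of their mean by construction, and many alternatives removed a library of an age outside the comparison. For the tested differences of single Gene IDs, 561 alternative values kept the call, 39 lost it and none changed direction; the call of the second most abundant for 5 against 3 dpf was lost in 12 of 24. The number of Gene IDs found by the rule moved in 2: it was 139, all of the 53 among them, with library totals alone in place of TMM, and 82 without replicate 2 of 13 dpf. The cause was not tested. With any 1 library removed, the rule gave 50 to 82 Gene IDs and the 53 held 2.14 to 3.49% of the 13 dpf counts. Among the 53, any difference over the other 6 ages was then called for 46 to 50. The step to 5 dpf had 19 to 31 calls, 14 against 5 dpf had 28 to 31, the step to 16 dpf had 18 to 32, the step to 17 dpf had 31 to 37, and the step to 24 dpf had 13 to 20. An age left with a single library is assumed there to vary like the others. The 2 lower calls for 24 against 17 dpf became 0 without replicate 2 of 17 dpf or of 24 dpf. Under all 24 alternatives no member called in a comparison of 2 ages changed direction. With the replicate block the calls were 49, 28, 31, 29, 34 and 18 in the same order. With only the libraries of the ages compared in the fit, 14 of the 17 calls for 24 against 17 dpf were kept. All calls of the other comparisons of 2 ages were kept there. Replicate numbers did not pair the samples, with correlations of same-numbered deviations of -0.066 to 0.052 over 21 pairs of ages. Upper-quartile scaling moved the median fitted log2 change of all tested from -0.09 to -0.25 for 24 against 17 dpf, and 18 of the 53 were called there, 15 higher and 3 lower. With the highest transcript of each Gene ID in place of the sum, the rule found 73, 44 of them among the 53. Depth limits most at 24 dpf, where 12 and 15 of the 53 had fewer than 3 counts in replicates 1 and 2.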
